A study of Mus musculus with 14 samples.

Results

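The genes described here are 8 transcription factor genes of the aortic endothelium: the SoxF genes Sox7, Sox17 and Sox18, the ETS genes Ets1, Ets2, Elk3 and Etv6, and the zinc finger gene Mecom. They were taken by name from the deposited expression tables, and all 8 were found among the 19506 genes listed there. Their transcripts were counted in 1121 single cells of 13 sorted populations, and in single whole intra-aortic haematopoietic clusters (wIAHCs), of mouse embryos at embryonic day (E)10 (28 to 32 somite pairs) and E11 (more than 40 somite pairs). Comparing the successive populations asks how the genes of the endothelium are turned down, and those of blood turned on, during the endothelial-to-haematopoietic transition (EHT).

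SoxF proteins bind DNA through an HMG box, and in the embryo they act in endothelial cells, where Sox17 is known for its role in arterial identity and in the haemogenic endothelium (HE). ETS proteins bind sites with a GGAA core and work in nearly all endothelial and blood cells; the enhancers of many endothelial genes hold several such sites. Mecom, a zinc finger factor of the Prdm family that is also known as Evi1, is needed for the upkeep of haematopoietic stem cells (HSCs), as is Etv6.

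The populations came from 2 kinds of mouse. Non-HE, HE and EHT cells were taken from the aorta-gonad-mesonephros (AGM) region of ICR embryos labelled Gfi+/tomato/ Gfi1b+/GFP, from wild-type mothers and, by the study's methods, fathers of that genotype. The reporters mark cells that use Gfi1 or Gfi1b. All 3 were gated as positive for Cdh5 and negative for Gfi1b; non-HE cells lacked both Gfi1 and c-kit, HE cells had Gfi1 without c-kit, and EHT cells had both. IAHC cells (c-kit+CD31+ at E10, c-kit+CD31+ and c-kit+ at E11), pre-HSCs (c-kit+Cdh5+, with CD45 recorded at the sort: type I without it, type II with it), haematopoietic stem and progenitor cells (HSPCs) of the yolk sac (YS, c-kit+) and wIAHCs came from wild-type C57BL/6 embryos. The step from EHT cells to IAHC cells or pre-HSCs is therefore also a step between strains and sorts, and these cannot be told apart. The study selected IAHC cells by their Gpr56 transcripts, which all deposited IAHC cells have, and embryos were pooled, so that no cell can be traced to an embryo.

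The E10 cells deposited are 546, with 3000 transcripts each, and the E11 cells are 575, with 5000 each, because the authors had brought all cells of a stage to 1 depth. Levels are therefore given per cell at the depth of the stage, and E11 cells were thinned to 3000 transcripts for each comparison of stages. Each population and stage is 1 GEO sample, apart from the pre-HSCs, whose types share 1. With no replicate of a condition there is no test and no p-value between populations; the 95% intervals given are exact (Poisson for means, Clopper-Pearson for shares, conditional binomial for ratios) and cover counting error only. The sorted sets named in the tables show the spread between sets, and HE and EHT cells at E11, IAHC cells at E10 and YS HSPCs at E11 have 1 set only. The set names of E10 EHT cells and of E11 non-HE cells also differ in the stage they give. Set and stage within the day cannot be told apart there. Cdh5, the endothelial cadherin used in the sorts, had a transcript in 43 of 43 non-HE, 95 of 98 HE and 144 of 191 EHT cells at E10, but in 3 of 141 YS HSPCs. Gfi1 had one in 1 non-HE, 27 HE and 96 EHT cells. Transcripts did not follow the gates throughout: Gfi1b had one in 19 of 191 EHT cells at E10 and in 6 of 46 at E11, and Kit, the gene of c-kit, in 4 of 43 non-HE and 19 of 98 HE cells at E10. The E10 non-HE cells carry a name in the table that places them early in E11, while their label says E10, and the label was followed.

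CEL-Seq reads the 3′ end of each transcript, so different transcripts of a gene that end together are counted as 1. In the GENCODE annotation of GRCm38, Sox7 lies at chr14:63943673-63950732 (+ strand), Sox17 at chr1:4490931-4497354 (- strand) and Sox18 at chr2:181669836-181671640 (- strand). Ets1 lies at chr9:32636221-32757820 (+), Ets2 at chr16:95702075-95721051 (+), Elk3 at chr10:93247414-93311135 (-), Etv6 at chr6:134035700-134270158 (+) and Mecom at chr3:29951296-30548008 (-). Mecom has 17 annotated transcripts, and the long and short forms that start from its different promoters were not separated here. Among genes that overlap 1 of the 8 genes, none on the same strand ends within 5000 bases of its end. Neighbours that do not overlap them were not searched. Levels are compared between populations, not between genes.

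Promoters of 4 of the 8 genes (Ets2, Elk3, Etv6 and Mecom) were in the RefSeq table used here (GRCm38.p6, 250 bases before to 50 after a transcription start). Those of Elk3, Etv6 and Mecom are shown because Elk3 and Mecom followed each other closely across the populations and Etv6 did not. Capitals mark the 4-letter ETS core, GGAA on either strand (TTCC), which was found 2 times at Elk3 (chr10:93311110-93311409, - strand), 6 times at Etv6 (chr6:134035450-134035749, + strand), and 4 times and 1 time at the starts of Mecom (chr3:30013155-30013454 and chr3:30509710-30510009, - strand). The starts of Mecom are numbered by coordinate, and on the - strand the second lies upstream of the first.
Elk3: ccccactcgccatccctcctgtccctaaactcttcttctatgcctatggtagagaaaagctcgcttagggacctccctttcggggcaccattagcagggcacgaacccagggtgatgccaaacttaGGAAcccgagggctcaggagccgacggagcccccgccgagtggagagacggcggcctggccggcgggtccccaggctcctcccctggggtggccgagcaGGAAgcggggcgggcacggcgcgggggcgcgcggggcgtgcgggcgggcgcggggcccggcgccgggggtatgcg
Etv6: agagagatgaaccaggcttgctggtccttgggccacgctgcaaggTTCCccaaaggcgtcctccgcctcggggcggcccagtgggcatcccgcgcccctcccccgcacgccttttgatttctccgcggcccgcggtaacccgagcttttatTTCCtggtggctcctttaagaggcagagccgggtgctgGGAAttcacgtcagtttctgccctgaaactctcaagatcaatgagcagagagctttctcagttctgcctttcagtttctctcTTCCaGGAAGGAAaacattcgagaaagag
Mecom, first start: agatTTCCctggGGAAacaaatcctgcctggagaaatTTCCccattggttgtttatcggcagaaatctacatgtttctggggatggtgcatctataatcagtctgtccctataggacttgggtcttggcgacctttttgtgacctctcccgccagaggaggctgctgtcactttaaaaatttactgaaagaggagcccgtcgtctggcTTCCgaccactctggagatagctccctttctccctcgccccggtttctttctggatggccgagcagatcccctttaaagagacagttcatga
Mecom, second start: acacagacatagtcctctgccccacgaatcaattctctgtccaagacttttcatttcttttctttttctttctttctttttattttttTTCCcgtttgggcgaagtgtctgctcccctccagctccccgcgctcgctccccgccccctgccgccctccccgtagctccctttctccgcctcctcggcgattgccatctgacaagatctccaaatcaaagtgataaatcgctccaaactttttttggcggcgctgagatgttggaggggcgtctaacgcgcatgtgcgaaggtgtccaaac
The core was present in 96.0% of the 32851 promoters of the table, with a median of 3 matches, so its presence sets none of these promoters apart. The longer ETS letters CCGGAA, a match to which also holds the core, are on either strand of 14.9% of promoters. The SOX letters AACAAT are on either strand of 10.7%. Neither is in these 5 windows, Ets2 included.

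The 3 SoxF genes were highest in the endothelial populations and lowest in the clusters, the pre-HSCs and the yolk sac. At E10, Sox7 had 0.744 transcripts per cell in non-HE cells, 0.949 in HE cells, 0.346 in EHT cells, 0.110 in IAHC cells and 0 in YS HSPCs. Sox17 had 1.95, 1.65, 0.236, 0.0685 and 0 transcripts per cell in the same order. Sox18 had 1.79, 1.11, 0.623, 0.0137 and 0. All 3 genes thus had their lowest levels in IAHC cells and YS HSPCs, and the intervals of IAHC cells (upper bounds of 0.216, 0.160 and 0.0763) lay under those of EHT cells (lower bounds of 0.267, 0.172 and 0.516). In YS HSPCs no SoxF transcript was seen in any of 141 cells, which allows a share of cells with a transcript of up to 2.13% at a floor of 3 counts, and of up to 2.58% by the exact interval.

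At E11 the order was alike. Sox7 had 1.4 transcripts per cell in non-HE, 2.11 in HE and 1.04 in EHT cells, then 0.209 in c-kit+CD31+ and 0.146 in c-kit+ IAHC cells, 0.177 in type I and 0.0364 in type II pre-HSCs, and 0.0217 in YS HSPCs. Sox17 had 3.27, 3.41 and 0.783 in non-HE, HE and EHT cells, 0.134 and 0.213 in both kinds of IAHC cells, 0.0968 and 0.0182 in type I and type II pre-HSCs, and 0 in the 46 YS HSPCs, where up to 6.52% of cells could have had a transcript at the floor, and up to 7.71% by the exact interval. Sox18 had 3.07, 4.39 and 1.2, then 0.0199 and 0.101, 0.0806 and 0.0909, and 0.0217. The plot of levels by population shows the drop between EHT cells and every later population for the 3 genes, and the smaller differences among IAHC cells and pre-HSCs, most of which were within counting error.

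**Figure D1:**
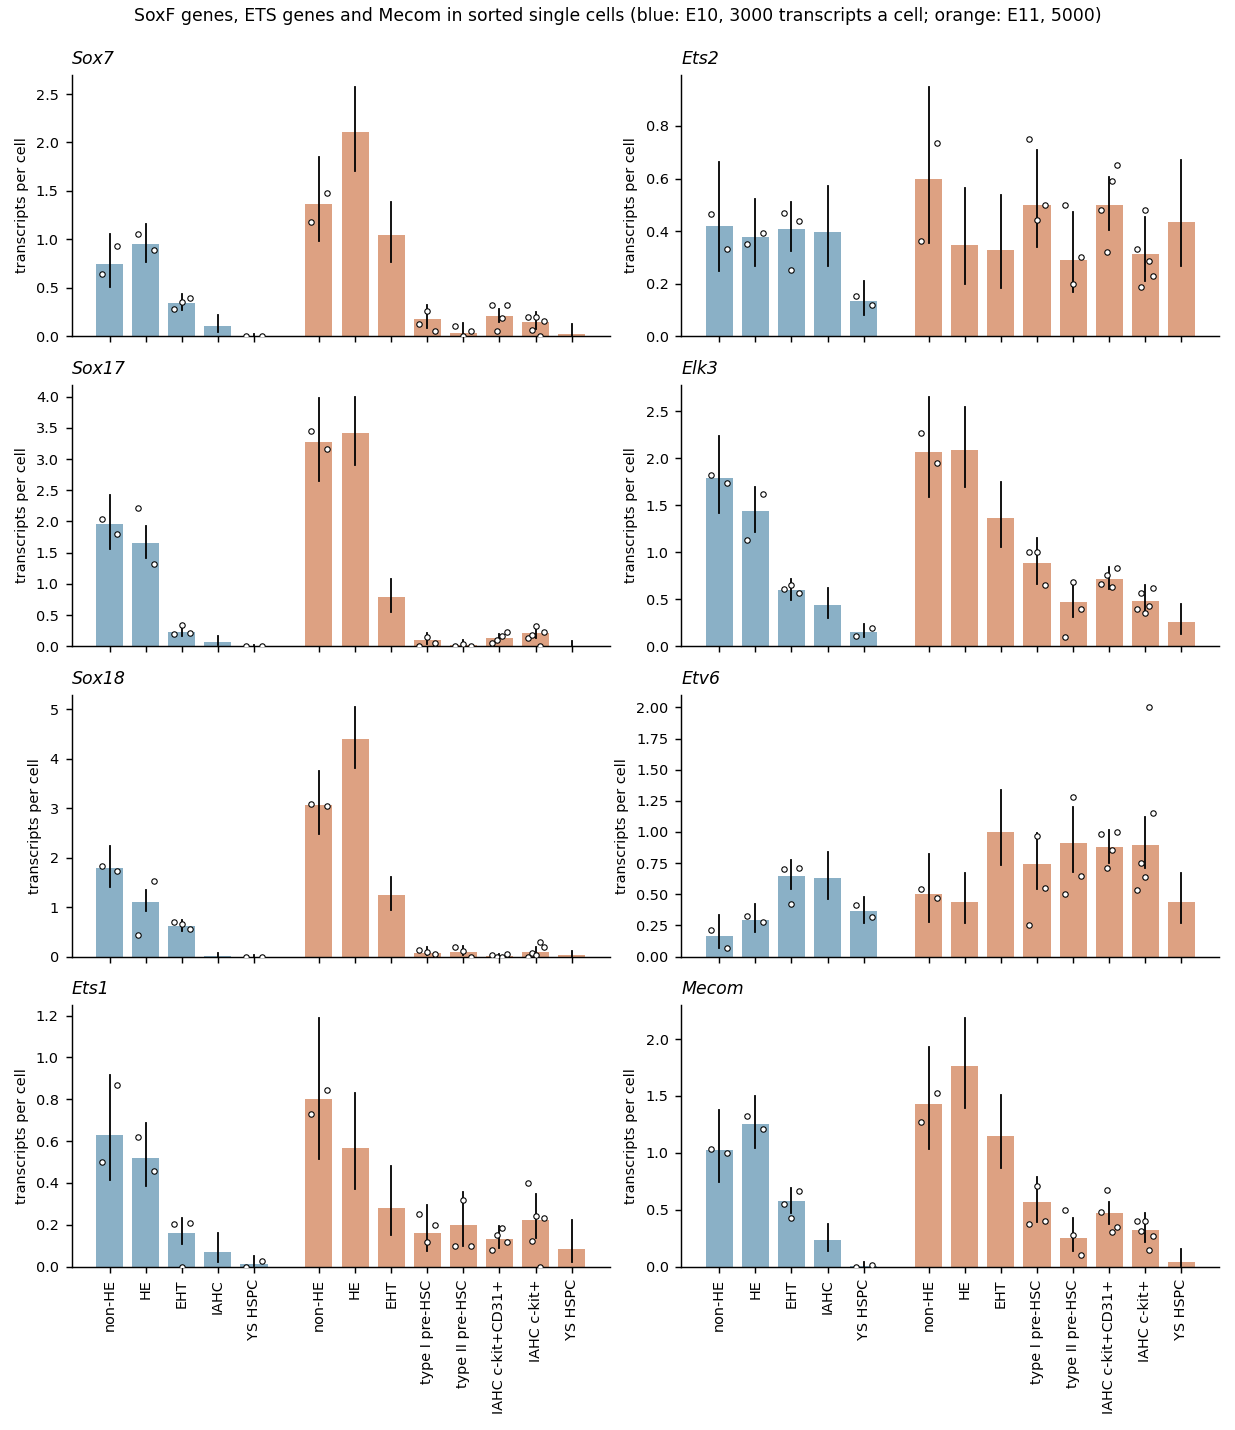
Bars give mean transcripts per cell of each gene (vertical axes, linear from 0) in the 13 sorted populations, in blue at E10 (3000 transcripts a cell) and in orange at E11 (5000 a cell). Lines are exact 95% Poisson intervals for counting error and white circles are sorted sets; the means of Sox7, Sox17 and Sox18 lie at 0.213 or less per cell after EHT, while Etv6 at E10 is lowest in non-HE cells, at 0.163.

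The step from HE to EHT cells is where the cells acquire c-kit while keeping Cdh5. Of the 8 genes at E10, 5 were at least 2-fold lower in EHT than in HE cells on log2(mean + 0.05), against 8.61% of the 4205 genes over a minimum level of 0.2 (a mean reached in 1 or both of the populations compared), and 1 was at least 2-fold higher, against 5.14%. Sox17 differed most among the 8, at 14.3% of its level in HE cells (interval 10% to 19.9%) and -2.58 on the log2 scale. Ets1, an ETS factor of endothelium and lymphocytes, stood at 31.2% (19% to 49.7%), Sox7 at 36.4% (26.2% to 50.5%), Elk3 at 41.5% (32.1% to 53.5%) and Mecom at 45.9% (35.2% to 59.8%). Sox18, at 56.0% (42.8% to 73.3%), did not reach 2-fold. Ets2 was level at 108% (72.3% to 165%), and Etv6 was the gene that was higher, at 219% (145% to 341%). Erythroid markers were at 0.694 transcripts per cell in HE cells (4 of 9 seen, 0 to 6 in a cell) and at 0.0419 in EHT cells (5 of 9 seen, 0 to 3), and their part in these differences was not tested.

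Several of these values rested on single sorted sets. The HE sets of 37 and 61 cells held 0.432 and 1.5 transcripts of Sox18 per cell, and those of EHT cells 0.703, 0.650 and 0.552. Without the second HE set, the difference of Sox18 changed its direction, to 0.48 on the log2 scale, and without the first it was -1.23. Sox17 was also uneven between the HE sets, at 2.22 and 1.3, but both lay above the 3 EHT sets at 0.203, 0.350 and 0.207. Etv6 had 0.324 and 0.279 in the HE sets against 0.703, 0.425 and 0.713 in the EHT sets, which did not overlap, and its log2 difference of 1.02 came to between 0.90 and 0.96 when either of the larger EHT sets or the second HE set was left out. Elk3 and Mecom were likewise close to the limit, at -0.87 without the second HE set and -0.97 without the second EHT set.

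At E11 the fold limit was passed by 3 genes between HE and EHT cells, 2 lower (background 12.2%) and 1 higher (8.63%). Sox17 stood at 22.9% of its HE level (15.5% to 33.1%), Sox18 at 28.2% (20.6% to 38%) and Etv6 at 230% (133% to 410%). Sox7, at 49.5% (34.3% to 70.6%), lay just inside the limit at -0.98 on the log2 scale. Elk3 was at 65.6% (47% to 91.1%), Mecom at 65.4% (45.4% to 93.6%) and Ets1 at 50% (23.6% to 101%), and Ets2 was level at 93.8% (43.2% to 202%). Macrophage markers were higher in the E11 EHT cells than in any other population, with 3.96 transcripts per cell against 0 to 0.771. There, 8 of 11 markers were seen (C1qa, Mrc1 and Cx3cr1 were at 0), with 0 to 67 transcripts in a cell, and 3 cells held 4 or more of them. Without these 3 cells the same number of genes, 3, passed the limit. Erythroid markers again were lower in EHT cells, at 0.0870 against 0.674 transcripts per cell in HE cells.

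Between HE and non-HE cells, which differ in the Gfi1 reporter, 0 of 8 genes passed the fold limit at E10 and 0 of 8 at E11. Of all genes over the minimum, 6.14% were lower and 6.07% higher in HE cells at E10, and 7.93% and 8.15% at E11. With shares this low, few of 8 genes would pass at the background rate, so the count does not show likeness. With E11 cells thinned to the E10 depth, Etv6 was lower in HE cells past the limit, at -1.04 on the log2 scale. Sox18 was 1.61-fold lower in HE cells at E10 (1.19 to 2.18) and 1.43-fold higher at E11 (1.11 to 1.85), and Sox7 was 1.54-fold higher at E11 (1.06 to 2.28). Etv6 at E10, 1.82-fold higher in HE cells (0.779 to 4.92), and Ets2 at E11, 1.73-fold lower (0.830 to 3.62), had higher ratios on fewer transcripts, within counting error. The E10 difference of Sox18 came from 1 set, being -1.93 on the log2 scale with the first HE set alone and within the limit with the second. The other genes differed by -0.31 (Elk3) to 0.33 (Sox7) on the log2 scale at E10, and at E11 by -0.47 (Ets1), -0.18 (Etv6), 0.01 (Elk3), 0.06 (Sox17) and 0.29 (Mecom). Erythroid markers were at 0.116 and 0.694 transcripts per cell in non-HE and HE cells at E10, and at 0.2 and 0.674 at E11. Etv6 had its lowest E10 level in non-HE cells, with 7 transcripts in 43 cells.

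From EHT to IAHC cells at E10, 4 of the 7 genes over the minimum were lower past the limit (background 8%) and 0 were higher (3.91%); Ets1 was under 0.2 in both populations. Sox7 was 3.15-fold lower (1.51 to 7.61), Sox17 3.44-fold (1.4 to 11.1) and Mecom 2.47-fold (1.5 to 4.4). Sox18 was 45.5-fold lower on 1 transcript in 73 cells (8.01 to 1.81e+03). Its level in E10 EHT cells was a larger part of its HE level than for the other SoxF genes, but this depended on the HE set. At E11 Sox7 kept more, at 49.5% of its HE level against 28.2% for Sox18. Elk3, Etv6 and Ets2 differed by -0.41, -0.04 and -0.04 on the log2 scale. Mecom was at -0.96 without the third EHT set, Sox17 at -0.99 with a pseudocount of 0.1, and Sox7 and Sox17 were not compared at a minimum of 0.5. Erythroid markers moved with this step, from 0.0419 to 1.59 transcripts per cell, with 5 of 9 markers seen in both, and their part in the result was not tested.

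The corresponding E11 comparison, of c-kit+CD31+ IAHC cells with EHT cells, gave 4 of 8 lower (background 14%) and 0 higher (7.5%). Sox18 was again the gene with the highest ratio, at 62.3-fold lower (23.0 to 236), before Sox17 at 5.83-fold (3.44 to 9.98), Sox7 at 4.99-fold (3.23 to 7.74) and Mecom at 2.46-fold (1.73 to 3.49). Elk3 was 1.90-fold lower (1.4 to 2.57), within the limit, and Ets1, Etv6 and Ets2 differed by -0.85, -0.18 and 0.54 on the log2 scale. Type I pre-HSCs against EHT cells gave 3 of 8 lower (background 13.3%) and 0 higher (6.03%): Sox18 by 15.4-fold (6.21 to 49.1), Sox17 by 8.09-fold (3.37 to 23.5) and Sox7 by 5.88-fold (3.01 to 12.6). Ets1, Elk3, Etv6 and Ets2 differed by -0.65, -0.60, -0.41 and 0.55 on the log2 scale. Etv6 came to -1.03, past the limit, without the second type I set. Erythroid markers moved with this comparison, from 0.0870 transcripts per cell in EHT cells (3 of 9 seen) to 3.56 in type I pre-HSCs (5 of 9 seen, 0 to 22 in a cell), and their part in it was not tested. Mecom was 2.04-fold lower in type I pre-HSCs (1.3 to 3.22), -0.97 on the log2 scale, and passed the limit at -1.44 without the second type I set and at -1.06 without the EHT cells rich in macrophage markers. These comparisons share the EHT cells and are not independent.

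Set against HE cells of the same stage, the 8 genes fell into levels of retention that the plot relative to HE shows on a log axis. In c-kit+CD31+ IAHC cells at E11, Sox18 stood at 0.453% of its HE level (0.122% to 1.18%), Sox17 at 3.94% (2.51% to 5.95%) and Sox7 at 9.91% (6.73% to 14.4%). Ets1 stood at 23.8% (13.3% to 42.4%), Mecom at 26.6% (20% to 36.2%) and Elk3 at 34.6% (26.5% to 45.2%). In this population the intervals of the 3 SoxF genes did not meet each other, and those of Ets1, Mecom and Elk3 overlapped. Ets2 stood at 143% (83.9% to 260%) and Etv6 at 201% (127% to 338%), the second above its HE level. In c-kit+ IAHC cells the SoxF intervals met, with Sox7 at 6.93% (3.56% to 12.4%), Sox17 at 6.25% (3.67% to 10.1%) and Sox18 at 2.30% (1.04% to 4.46%). At E10, IAHC cells gave 1.23% for Sox18 (0.0309% to 7.01%), 4.14% for Sox17 (1.33% to 9.87%) and 12% for Sox7 (4.84% to 23.7%), intervals that met, then 13.2% for Ets1, 18.6% for Mecom, 30.5% for Elk3, 105% for Ets2 and 213% for Etv6.

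**Figure D2:**
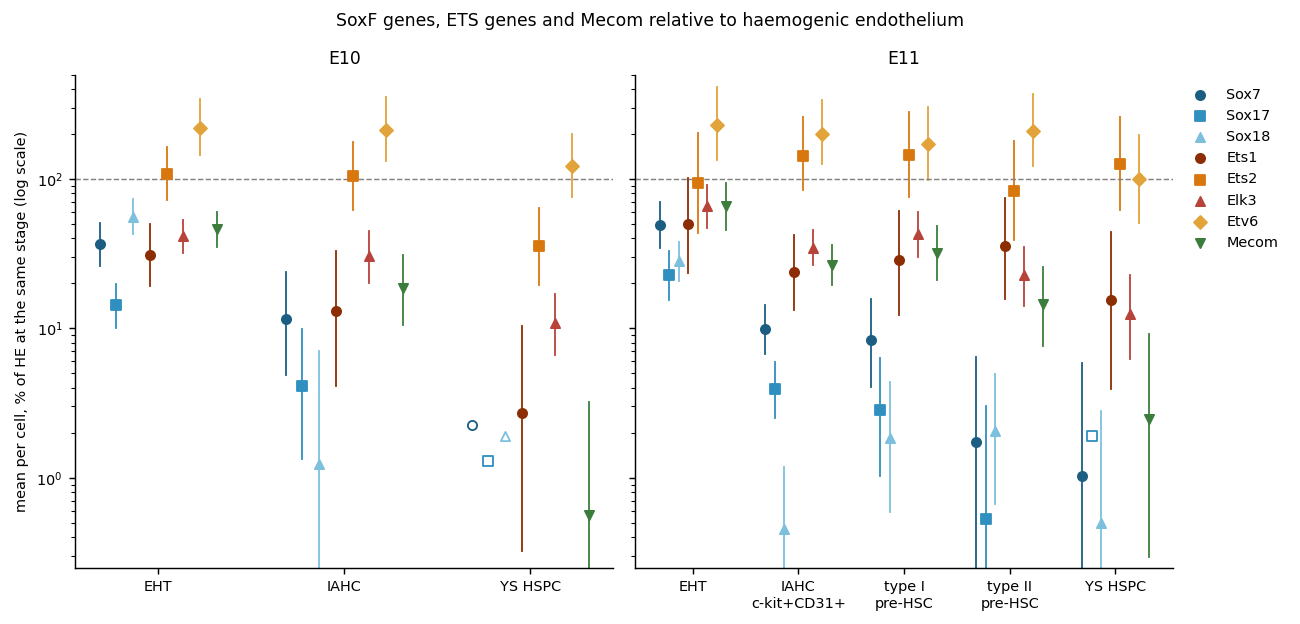
Level of each gene as a percentage of its level in HE cells of the same stage (log axis), for the populations after HE at E10 and E11 (c-kit+ IAHC cells are not drawn). Lines are exact 95% intervals of the ratio for counting error, ending at the lower edge where they reach beyond it, and open symbols mark populations with 0 transcripts, drawn at the floor of 3 transcripts; in E11 c-kit+CD31+ IAHC cells the genes range from 0.453% (Sox18) to 201% (Etv6).

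Mecom was at its lowest in the yolk sac at both stages, and the pre-HSC types overlapped in it set by set. At E10 it had 1.02 transcripts per cell in non-HE cells, 1.26 in HE cells, 0.576 in EHT cells, 0.233 in IAHC cells and 0.00709 in YS HSPCs. At E11 it had 1.43, 1.8 and 1.2 in non-HE, HE and EHT cells, 0.468 and 0.326 in c-kit+CD31+ and c-kit+ IAHC cells, 0.565 and 0.255 in type I and type II pre-HSCs, and 0.0435 in YS HSPCs. The yolk sac values rest on 1 transcript in 141 cells at E10 and 2 transcripts in 46 cells at E11, and were the lowest at both stages. Relative to IAHC cells, YS HSPCs had 32.8-fold less Mecom at E10 (5.15 to 1.37e+03) and 10.8-fold less at E11 (2.90 to 90.1).

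In type II pre-HSCs Mecom was 2.22-fold lower than in type I (1.16 to 4.46), -1.01 on the log2 scale, and it was the one gene of the 5 over the minimum that passed the limit there (background 3.06% lower, 2.66% higher). It was seen in 27 of 62 type I cells (43.5%, 31.0% to 56.7%) and in 13 of 55 type II cells (23.6%, 13.2% to 37.0%). The sorted sets overlapped, with 0.375, 0.706 and 0.400 transcripts per cell in type I and 0.5, 0.280 and 0.1 in type II. The call was lost, at -0.54, without the second type I set, at -0.65 without the third type II set, at -0.60 with cells thinned to 3000 transcripts, and at -0.91 with a pseudocount of 0.1. Elk3 was 1.88-fold lower in type II (1.16 to 3.12), within the limit, with type I sets at 1.00, 1.00 and 0.650 and type II sets at 0.1, 0.680 and 0.400. It passed the limit at -1.42 without the second type II set and at -1.01 without the third type I set. Both types came from 1 kind of index sort, and their sets carry the same 3 numbers, so they were also compared within sets, a choice made after the data were seen and with no test. Elk3 was lower in type II in 3 of 3 sets, with differences of -2.81, -0.52 and -0.64 on the log2 scale and a mean of -1.32 that passes the limit through the first set, of 8 and 10 cells. Ets2 was lower in 3 of 3 sets (mean -0.72), Etv6 higher in 3 of 3 (mean 0.49) and Mecom lower in 2 of 3 (mean -0.80), all within the limit.

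The deposited IAHC cells were also divided by a rule of more than 1 Gpr56 transcript and no more than 2 of any of 11 genes that the study's text names for other cells. The rule follows the study's selection, but here it was applied to the down-sampled counts, so cells that fall outside it are not cells that the study discarded. At E10, 11 of the 17 Mecom transcripts of IAHC cells were in cells outside the rule. These 19 cells had 0.579 transcripts per cell (0.289 to 1.04) and the 54 inside it 0.111 (0.0408 to 0.242). Elk3 had 0.684 outside and 0.352 inside, and Etv6 0.737 and 0.593, with intervals that overlapped. At E11 the intervals of Mecom overlapped, with 0.410 in the 61 c-kit+CD31+ cells outside the rule and 0.493 in the 140 inside, and 0.429 and 0.234 in c-kit+ cells. In the c-kit+ IAHC cells, Sox17 had 0.381 in the 42 cells outside the rule (0.218 to 0.619) and 0.0638 in the 47 inside (0.0132 to 0.187), and Ets1 had 0.357 and 0.106. With the rule applied, Mecom at E10 was under the minimum in both IAHC cells and YS HSPCs. E11 IAHC cells then had Mecom higher than E10 IAHC cells by 1.26 on the log2 scale, where all deposited cells gave 0.32. The rule chose E10 cells at 3000 transcripts and E11 cells at 5000, so it was not equal between the stages.

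Elk3 is an ETS factor of the ternary complex group that acts with serum response factor. It was highest in non-HE and HE cells and lowest in YS HSPCs at both stages. At E10 it had 1.79 transcripts per cell in non-HE cells, 1.44 in HE, 0.597 in EHT and 0.438 in IAHC cells, and 0.156 in YS HSPCs. At E11 it had 2.07, 2.09 and 1.4 in non-HE, HE and EHT cells, 0.721 and 0.483 in c-kit+CD31+ and c-kit+ IAHC cells, 0.887 and 0.473 in type I and type II pre-HSCs, and 0.261 in YS HSPCs. It was found in 48.8% of E11 c-kit+CD31+ IAHC cells. YS HSPCs had 2.81-fold less Elk3 than IAHC cells at E10 (1.58 to 5.07) and 2.8-fold less at E11 (1.54 to 5.48). The E10 difference, -1.25 on the log2 scale, came to -0.98 without the first YS set and to -0.96 with the Gpr56 rule.

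Etv6, an ETS repressor, ran the other way. At E10 it had 0.163 transcripts per cell in non-HE, 0.296 in HE, 0.649 in EHT and 0.630 in IAHC cells, and 0.362 in YS HSPCs. At E11 it had 0.5, 0.435 and 1.00 in non-HE, HE and EHT cells, 0.876 and 0.899 in both kinds of IAHC cells, 0.742 and 0.909 in type I and type II pre-HSCs, and 0.435 in YS HSPCs. The values of EHT, IAHC and pre-HSC cells at E11 had overlapping intervals. All were above that of HE cells, beyond counting error except in type I pre-HSCs, at 171% of it (98.9% to 305%), whose first set, at 0.25, lay under it. The share of cells with an Etv6 transcript was 25.5% in HE and 46.1% in EHT cells at E10, and 30.4% and 63.0% at E11. YS HSPCs had lower levels than IAHC cells at both stages, by -0.72 and -0.93 on the log2 scale, within the limit.

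Ets1 and Ets2, close relatives by sequence, differed in their pattern. Ets1 had 0.628, 0.520, 0.162, 0.0685 and 0.0142 transcripts per cell in non-HE, HE, EHT and IAHC cells and YS HSPCs at E10. Ets2 had 0.419, 0.378, 0.408, 0.397 and 0.135. Ets1 thus followed the endothelial genes, while Ets2 was level across the 4 aortic populations and lower in the yolk sac. At E11 Ets1 ranged from 0.0870 in YS HSPCs to 0.8 in non-HE cells. Ets2 ranged from 0.291 in type II pre-HSCs to 0.6 in non-HE cells, where neighbours in the order of its levels differed by no more than counting error, but some populations farther apart did, such as both kinds of IAHC cells. In the yolk sac at E10, Ets2 was 2.95-fold lower than in IAHC cells (1.6 to 5.56), but at E11 it had 0.435 transcripts per cell there against 0.498.

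Against IAHC cells, YS HSPCs had 3 of the 4 genes over the minimum lower past the limit at E10 (Ets2, Elk3 and Mecom; background 8.71%), with 0 higher (5.67%). At E11, 3 of 5 passed the limit, Sox7, Elk3 and Mecom, all of them lower, against a background of 13.8% in either direction. Sox7 and Sox17, with no transcript in the E10 yolk sac and under 0.2 per cell in IAHC cells, were at least 5.15-fold and 3.22-fold lower there at the floor of 3 transcripts over the population. The exact intervals of the ratios, which also cover the counting error of the 8 and 5 transcripts in IAHC cells, start at 3.30-fold and 1.77-fold. Of the 8 Sox7 transcripts, 5 were in IAHC cells outside the Gpr56 rule. With the rule its log2 difference was -1.08, where all cells gave -1.67, so its bound is lower there. Sox7 at E11 was 9.61-fold lower (1.63 to 389) on 1 transcript in the yolk sac, and fell under the minimum when either of 2 IAHC sets, the first or the last, was left out, with cells thinned to 3000 transcripts (-1.36) and with the Gpr56 rule (-1.67). Erythroid markers were at 4.7 transcripts per cell in E11 YS HSPCs (6 of 9 markers seen) against 0.179 in IAHC cells, and their part in these differences was not tested. The c-kit+ IAHC cells differed from c-kit+CD31+ cells past the limit in 0 of 7 genes over the minimum (2.55% lower, 2.06% higher). Ets2 and Elk3 were 1.58-fold (1.03 to 2.50) and 1.49-fold (1.06 to 2.15) lower in c-kit+ cells, beyond counting error. Sox18, under the minimum in both, was 5.08-fold higher in c-kit+ cells (1.4 to 22.6). Of its 9 transcripts in c-kit+ cells, 5 were in 1 sorted set, of 26 cells, so the ratio rests largely on that set.

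Detection in single cells gives the share of cells in which SoxF transcripts were seen at the depth used, as drawn in the plot of SoxF genes per cell. At E10, at least 1 of the 3 genes had a transcript in 93% of non-HE, 91.8% of HE, 54.5% of EHT and 16.4% of IAHC cells, and in none of the YS HSPCs. All 3 were detected together in 25.6%, 21.4%, 5.24%, 0% and 0%. At E11, where cells were deeper, at least 1 gene was seen in 100% of non-HE and HE cells, 78.3% of EHT cells, 24.9% of c-kit+CD31+ and 29.2% of c-kit+ IAHC cells, 22.6% of type I and 10.9% of type II pre-HSCs, and 4.35% of YS HSPCs. YS HSPCs thus had the lowest share at both stages. No population known to lack the 3 genes was measured, so the share that free RNA alone would give is not known.

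**Figure D3:**
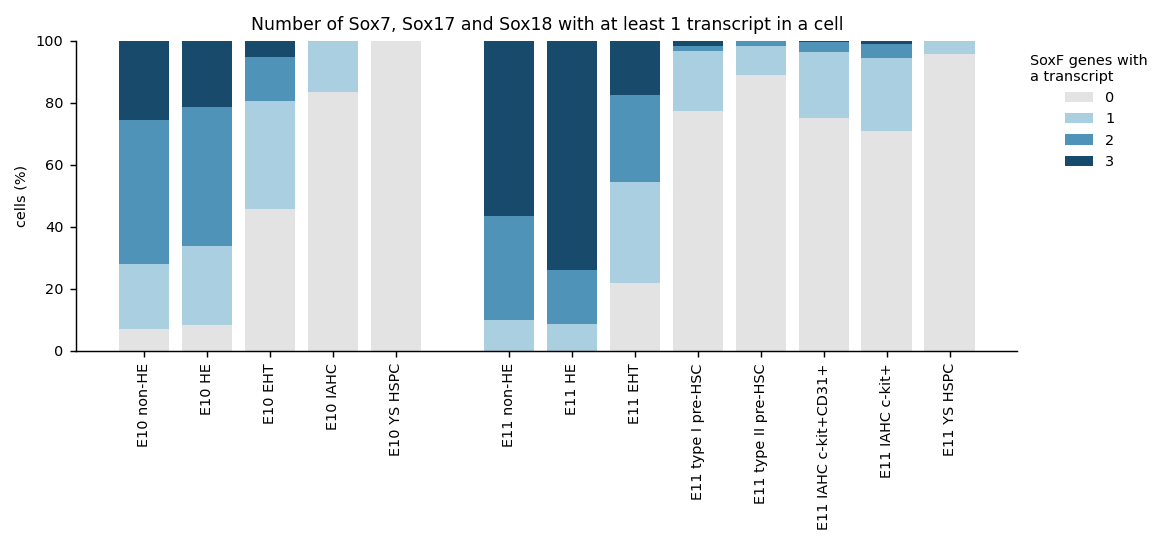
Share of cells (%, linear axis) with transcripts of 0, 1, 2 or 3 of the SoxF genes in each population, at 3000 transcripts a cell for E10 and 5000 for E11. At E10 the share with at least 1 gene is 91.8% in HE cells, 54.5% in EHT cells, 16.4% in IAHC cells and 0% in YS HSPCs.

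Within EHT cells, cells with and without SoxF transcripts were both found with transcripts of the haematopoietic genes. Of the 104 SoxF-positive E10 EHT cells, 48.1% had a Runx1 transcript (38.2% to 58.1%), against 55.2% of the 87 negative ones (44.1% to 65.9%). Myb, a factor of definitive blood, was seen in 43.3% and 52.9%, Gfi1 in 47.1% and 54%, and Gpr56 in 88.5% and 94.3%. The gaps were wider for Kit, at 56.7% and 72.4%, and for Sfpi1, at 40.4% and 55.2%. All 6 genes were thus in a smaller share of SoxF-positive cells, with intervals that overlapped. Mecom was found at E10 in 51.9% of SoxF-positive (41.9% to 61.8%) and 29.9% of negative cells (20.5% to 40.6%), and Cdh5 in 85.6% (77.3% to 91.7%) and 63.2% (52.2% to 73.3%), with intervals that did not meet. Elk3, at 51% and 36.8%, and Etv6, at 41.3% and 51.7%, had overlapping ones. At E11, 36 EHT cells were SoxF-positive and 10 negative, and all intervals overlapped: Sfpi1, Kit, Runx1 and Gfi1 were again in a smaller share of positive cells (Sfpi1 in 38.9% against 80%), Myb was in 50% of both, and Gpr56 was in 97.2% against 80%. Mecom was in 58.3% against 50% of these, Cdh5 in 94.4% against 60% and Elk3 in 72.2% against 30%. In E11 c-kit+CD31+ IAHC cells, Elk3 was seen in 74.0% of 50 SoxF-positive (59.7% to 85.4%) and 40.4% of 151 negative cells (32.5% to 48.7%), and Mecom in 42.0% and 31.1%. The c-kit+ IAHC cells had Elk3 in 46.2% and 33.3%, but type I pre-HSCs had it in 50% and 62.5%, and type II pre-HSCs in 0 of 6 and 44.9%, so that the direction was not shared. Cells of 1 sample are not replicates, and these shares are descriptions.

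EHT cells at E11 were also uneven in Sox7, which was not detected in 27 of 46 cells. It was detected in 19 of 46 cells (41.3%), with up to 10 transcripts in 1 cell and a variance of 4.34 times the mean. Sox7 was found in 80.4% of HE cells at that stage, with up to 7 in a cell. The sum of SoxF transcripts reached 18 in an E11 EHT cell, where the mean was 3.07, against a mean of 9.91 and a highest cell of 28 in HE cells.

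Between the stages, at 3000 transcripts per cell, 1 of the 8 genes differed past the limit in HE cells. Sox18 had 1.11 transcripts per cell at E10 and 2.7 at E11, 2.38-fold more (1.83 to 3.12), against 3.92% of genes higher and 10.3% lower. That difference came to 0.78 on the log2 scale when the E10 HE set with few Sox18 transcripts was left out. In non-HE cells (4.68% higher, 10.9% lower), EHT cells (2.7% and 9.04%), YS HSPCs (1.67% and 14.3%) and c-kit+CD31+ IAHC cells (0.673% and 5.84%), 0 genes passed it, of 8, 7, 2 and 4 genes over the minimum; the others were too low to be compared. Sox17 in EHT cells was 1.75-fold higher at E11 (0.968 to 3.06), Sox7 1.51-fold (0.905 to 2.44), Elk3 1.49-fold (1.02 to 2.15) and Mecom 1.43-fold (0.965 to 2.09). Etv6 in non-HE cells was at 0.367 against 0.163, 0.97 on the log2 scale and just inside the limit. It passed the limit at 1.84 without the first E10 set and at 1.25 without the second E11 set.

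The lists of related genes place these values. Between HE and EHT cells at E10, 12 of 12 arterial genes over the minimum were lower past the limit and 0 higher, with a median of -1.94 on the log2 scale against 0.05 over all genes. They include Gja5 and Gja4, connexins of arteries, at 6.32 and 4.21 transcripts per cell in HE and 0.539 and 0.686 in EHT cells. Other endothelial transcription factors were lower in 7 of 10 (median -1.62), for example Epas1, at 2.38 and 0.440, and pan-endothelial genes in 9 of 12 (median -1.4). The haematopoietic transcription factors had 5 of 14 higher and 0 lower (median 0.55). At E11, 11 of 13 arterial genes (median -1.72), 8 of 12 other endothelial factors (median -1.68) and 10 of 14 pan-endothelial genes (median -1.26) were lower, against -0.07 over all genes, and 6 of 14 haematopoietic factors were higher and 1 lower. Of all genes over the minimum, 8.61% were lower and 5.14% higher at E10, and 12.2% and 8.63% at E11.

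Among relatives, 5 of the 21 other ETS genes in the tables were over the minimum for E10 HE and EHT cells, and 1 was higher and 0 were lower. Sfpi1, which encodes the blood factor PU.1, was that gene, at 0.0816 transcripts per cell in HE and 0.691 in EHT cells. Fli1, an ETS factor of both endothelium and blood, was at 0.541 and 0.440, within the limit. Of 5 other Sox genes over the minimum, 3 were lower (median -1.3), Sox13 among them, at 0.337 and 0.0995. From EHT to IAHC cells at E10, the arterial genes were lower in 7 of 7 and the pan-endothelial genes in 0 of 11 (medians -1.78 and -0.47), and at E11 in 11 of 12 and 3 of 13 (-1.72 and -0.68). The 3 SoxF genes had medians of -1.3 and -2.18 in these comparisons. Of all genes over the minimum, 8% were lower past the limit at E10 and 14% at E11.

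Profiles over the 13 populations, scaled to 3000 transcripts, were compared by Pearson correlation of log2 values among 2335 genes. These points share libraries, sorts and depth, so the values are descriptions. The nearest genes were Ptprb (0.983), Gja4 (0.982) and Sncg (0.982) for Sox7, Fbn1 (0.992), Epas1 (0.988) and Tmem2 (0.984) for Sox17, and Smad6 (0.974), Nckap5l (0.974) and Prex2 (0.971) for Sox18. For Ets1 they were Bmpr2 (0.987), Ppp1r15a (0.987) and Efna1 (0.969). Elk3 was nearest to Pecam1 (0.989), which encodes CD31, and to Ece1 (0.987) and Col4a1 (0.985). Mecom was nearest to Esam (0.990), F11r (0.986) and Ctnnb1 (0.984), which encode proteins of cell junctions. Etv6 had no neighbour as close, with Gsn at 0.918, Mef2c at 0.896 and Rnf149 at 0.882. Among the 8 genes themselves, the pairs of SoxF genes, Ets1, Elk3 and Mecom had correlations of 0.872 to 0.969, with Elk3 and Mecom at 0.965, while Etv6 had -0.518 to -0.167 with all others. Ets2 stayed under 0.5 transcripts per cell at this depth and was not searched for neighbours.

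Whole IAHCs were sequenced as single libraries after collection from either the ventral or the dorsal wall. Of 109, the 57 with at least 5000 transcripts were used: 21 ventral and 7 dorsal at E10, 17 ventral and 12 dorsal at E11, with 5099 to 115328 transcripts. In such bulk samples, fewer cells of a type and less RNA per cell cannot be told apart. All 8 genes were at 0 in at least 1 wIAHC of each group, and the lowest value was 0 throughout. Etv6 was seen in 15 of 21, 4 of 7, 15 of 17 and 9 of 12 libraries in the order above, with medians of 1.64, 0.732, 1.86 and 1.5 per 10000 transcripts and highest values of 3.70, 3.25, 5.85 and 3.93. Elk3 was seen in 15, 5, 14 and 7 libraries, with medians of 0.794, 1.34, 1.64 and 0.622. The ranges of the 4 groups overlapped for both.

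Mecom was seen in 13 of 21 and 2 of 7 libraries at E10 and in 10 of 17 and 7 of 12 at E11. Its medians were 0.212 and 0 per 10000 at E10, and 0.978 and 0.774 at E11, for ventral and dorsal wIAHCs, with highest values of 1.26 and 0.732 at E10 and 4.92 and 5.06 at E11. The stages overlapped, as 0 occurred in all groups, but the highest values were at E11. The SoxF genes were rare in wIAHCs: Sox17 was seen in 2 of 21 and 0 of 7 libraries at E10 and in 4 of 17 and 3 of 12 at E11, Sox7 in 6, 2, 5 and 4, and Sox18 in 7, 1, 6 and 4. The sum of SoxF transcripts had medians of 0.189, 0, 0.771 and 0.581 per 10000 over the libraries of a group, and rested on 27, 8, 24 and 17 transcripts in all. Of the 8 in dorsal wIAHCs at E10, 4 were in 1 library. Pan-endothelial genes made up medians of 0.124%, 0.112%, 0.149% and 0.238% of transcripts in the same order. Mesenchyme markers made up medians of 0.00212%, 0.000869%, 0.0238% and 0.0206%, and so were also higher at E11. The part of either in these values was not tested.

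None of the 8 genes had enough transcripts to enter the test fixed for wIAHCs, the edgeR quasi-likelihood test with a filter on low counts, in which 260 genes were tested. In that test, 18.1% of genes were higher and 13.1% lower at E11 in ventral wIAHCs, 7.31% and 1.92% in dorsal ones (19 and 5 genes, a split that DESeq2 turned to 6 higher and 175 lower), and 0 differed between the sides or in the interaction of stage and side (20, 23 and 26 genes had an unadjusted p under 0.05). Without the filter, over 13627 genes, 2.27% differed between the stages in ventral and 0.785% in dorsal wIAHCs, 0.0587% between the sides at E10 and 0.0881% at E11, and 0.154% in the interaction. None of the 8 passed an adjusted p of 0.05 in any of these 5 comparisons. Mecom was higher at E11 in both sides, by 1.25 on the log2 scale in ventral wIAHCs (edgeR, adjusted p = 0.0815) and by 2.32 in dorsal ones (edgeR, adjusted p = 0.143), and both failed the correction. DESeq2 gave 1.23 (adjusted p = 0.183) and 2.25, the second with no adjusted p. wIAHCs of 1 embryo cannot be recognised, so these p-values are too small.

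The Mecom difference also went with the collection sets of E11. In the first set Mecom was seen in 4 of 4 ventral wIAHCs, with a median of 1.85 per 10000, and in 5 of 6 dorsal ones, with a median of 1.3. In the second set it was seen in 6 of 13 and 2 of 6, with medians of 0, as at E10 in dorsal wIAHCs. E10 libraries have no such sets, so that stage and set can be compared only in part. Elk3 was higher at E11 in ventral wIAHCs by 0.78 (edgeR, adjusted p = 0.303) and lower in dorsal ones by -0.64 (edgeR, adjusted p = 0.626), and the test of the difference between these gave 1.43 (edgeR, adjusted p = 0.749). Erythroid markers made up as much as 23.7% of transcripts in a ventral and 27.7% in a dorsal wIAHC at E11, but at most 0.0541% at E10.

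**Figure D4:**
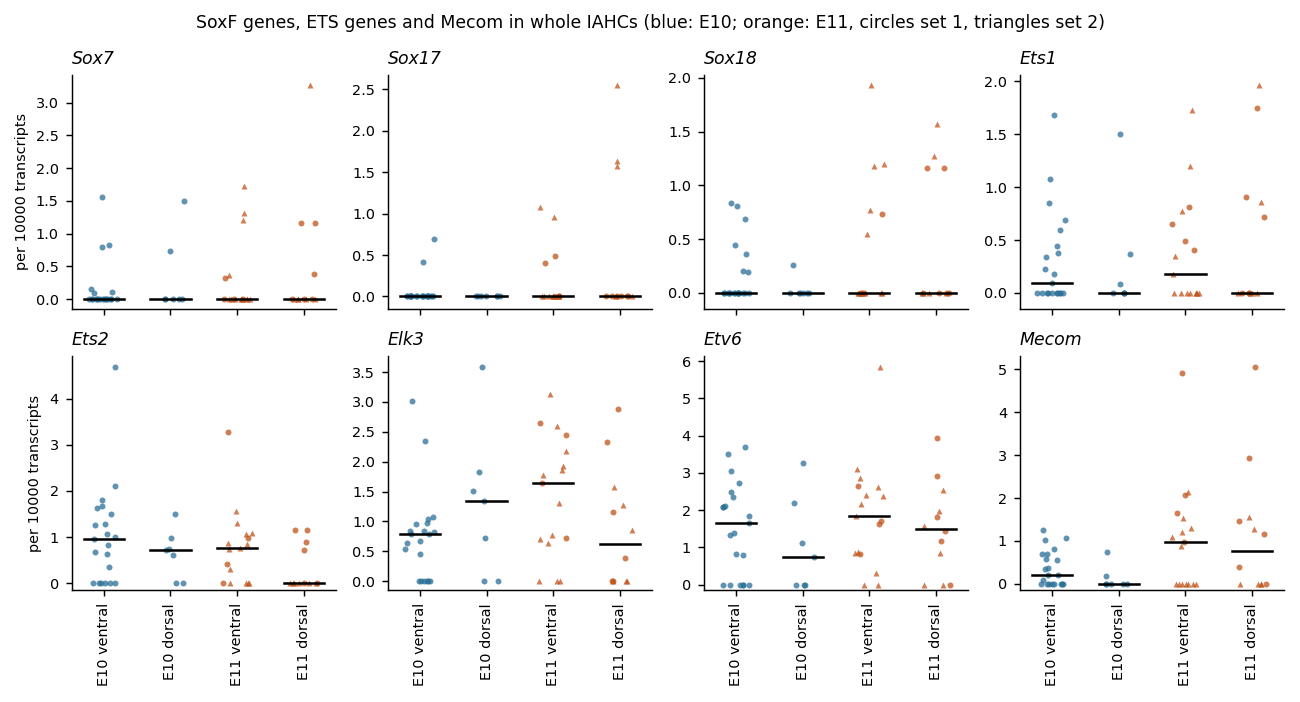
Transcripts of each gene per 10000 transcripts (vertical axes, linear from 0) in single wIAHC libraries by stage and side, with black lines at the medians. Blue points are E10 libraries, orange circles and triangles the first and second collection set of E11; Mecom medians are 0.212 and 0 at E10 and 0.978 and 0.774 at E11, for ventral and dorsal.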

How the data were processed

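The deposited single-cell values are expected counts of transcripts that the authors estimated from CEL-Seq reads with unique molecular identifiers (UMIs), down-sampled to 1 total per cell and raised by 0.1 (subtracted here). The deposited wIAHC values are expected counts corrected by the authors for collisions among 256 UMI sequences and not scaled for depth; they were rounded to whole transcripts and 90 spike-in rows were left out. The submitters' processing notes name BWA 0.6.2-r126 and mm10.

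The 8 genes, the gene lists and the tests were chosen with earlier results of these data known. The rule names all 8 genes in every comparison of populations, singly or by their range or count; from each list, counts and at most 4 genes of the highest mean, and the 3 genes of highest correlation with each gene. Sfpi1, Fli1, Sox13, Myb, Runx1, Kit, Gfi1, Cdh5 and Gpr56 were named outside that rule or after their values were seen.

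Population means were compared on log2(mean + 0.05), among genes whose mean was 0.2 or more in 1 or both populations. Differences of at least 2-fold were counted, without a test. No doublet caller was run, as cells were sorted into wells. All deposited cells were used. Intervals are at 95%, and a floor of 3 transcripts stands for 0. E11 cells were thinned to 3000 transcripts with a fixed random seed.

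wIAHC libraries of at least 5000 transcripts were compared with edgeR 4.0.16 in R 4.3.3 (quasi-likelihood test, TMM scaling, filterByExpr, all 4 groups of stage and side in 1 fit) with p-values adjusted by Benjamini-Hochberg and a threshold of 0.05. As another tool, DESeq2 1.42.0 was run. The code was tested on simulated data. Alternatives were another pseudocount and minimum, thinning, a Gpr56 rule for IAHC cells, leaving out macrophage-rich cells or each sorted set, pre-HSC sets paired by number (added after the data were seen), and for wIAHCs another tool, filter, scaling and minimum, a term for collection set, and no wIAHCs over 5% globin. Python 3.11.15, numpy 2.4.6, pandas 2.3.3, scipy 1.17.1 and matplotlib 3.10.9 were used. Protein sequences and a list of cell barcodes were not used here.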

Additional observations from a re-analysis of the deposited data

Results flagged for a closer look

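In the group of 7 dorsal wIAHCs at E10, the highest library stood apart from the others in transcripts per 10000 for 3 of the 7 genes that were seen there, in a different library each time. For Sox18 it held 0.262, and the others 0. For Ets1 the highest library held 1.51 and for Mecom 0.732. The Sox18 value stands for 3 transcripts, and the Ets1 and Mecom values for 1 transcript each. In transcripts these libraries did not stand apart, since 2 other libraries also held 1 of Ets1 and another held 2 of Mecom, so both values depend on the total of the library. Chance singles out about 1 in 20 groups, but this share need not hold where most libraries are at 0. For Sox18, with the others at 0, any library with a transcript would stand apart.

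The 52 wIAHC libraries under 5000 transcripts, which entered no comparison, also held transcripts of all 8 genes: 19 of Etv6, 15 of Mecom, 11 of Elk3, 8 of Sox18, 5 of Sox17, 5 of Ets2, 4 of Ets1 and 2 of Sox7. All sums but that of Sox7 are above the 3 transcripts that a count of 0 allows.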

How the results depend on the processing

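Over all alternatives run, no count or gene difference that had passed the fold limit changed its sign. Within the limit, Sox17 in c-kit+ against c-kit+CD31+ IAHC cells turned from 0.52 on the log2 scale to -0.39 when thinned to 3000 transcripts. With the Gpr56 rule it turned to -0.47. Sox18 in E10 EHT against HE cells, also within the limit, turned from -0.79 to 0.48 without the second HE set. With a minimum mean of 0.5 per cell, E10 IAHC against EHT cells kept 2 genes past the limit, E10 YS HSPCs against IAHC cells 0 and the same at E11 1; fewer genes are then compared. With the Gpr56 rule, E10 YS HSPCs against IAHC cells gave 1 gene, c-kit+ against c-kit+CD31+ IAHC cells 1 and E11 against E10 IAHC cells 1. For the last, the rule chose E10 cells at 3000 transcripts and E11 cells at 5000. Thinned to 3000 transcripts, E11 HE against non-HE cells gave 1 gene (Etv6, -1.04), and with a pseudocount of 0.1, type II against type I pre-HSCs gave 0 (Mecom, -0.91). Thinning also took Sox7 in E11 EHT against HE cells (-1.17), Mecom in type I pre-HSCs against EHT cells (-1.43) and Ets2 in type II against type I pre-HSCs (-1.13) past the limit, and Sox7 in E11 YS HSPCs against IAHC cells (-1.36) under the minimum. The pseudocount of 0.1 also took Etv6 in E10 EHT against HE cells (0.92) and Sox17 in E10 IAHC against EHT cells (-0.99) inside it. Leaving out each sorted set in turn gave 4 to 7 genes for E10 EHT against HE cells, 0 to 1 for E10 HE against non-HE, 3 to 5 for E10 IAHC against EHT and 2 to 3 for E10 YS HSPCs against IAHC cells. It gave 3 to 5 for type I pre-HSCs against EHT, 0 to 3 for type II against type I, 2 to 4 for E11 YS HSPCs against IAHC cells, and 0 to 1 for the stages in HE and in non-HE cells.

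In wIAHCs, edgeR called 81 genes between stages in ventral and 24 in dorsal libraries. DESeq2 called 162 and 181 (ventral 72 higher and 90 lower, dorsal 6 higher and 175 lower), and 25 between the sides at E11. Without a filter on low counts, edgeR called 310 and 107 (dorsal 25 higher and 82 lower), 8 and 12 between the sides at E10 and E11, and 21 in the interaction. With at least 10000 transcripts the counts were 132 and 3, and without scaling factors 86 and 40, where the median of all genes moved to -0.13 and -0.16 and the ventral split went from 47 higher and 34 lower to 30 and 56, the dorsal one from 19 and 5 to 16 and 24. Without the 4 wIAHCs over 5% globin, 1 gene was called between the sides at E11. The cause of these changes was not tested. None of the 8 genes was called without the filter, where all 8 were tested, or by DESeq2 where it gave them an adjusted p. They did not pass the filter in the other alternatives and were not tested there. The sample labels give no replicate numbers, but the columns number the sorted sets. With the sets of pre-HSCs paired by number as a replicate block, 1 gene still passed the limit between the types, Elk3 (-1.32) in place of Mecom (-0.80).

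At 3000 to 5000 transcripts a cell, a gene at 0.2 transcripts per cell is seen in a minority of cells, so a cell without a transcript is not a cell without expression. In wIAHCs most values of the 8 genes are 0 to a few transcripts.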
